A study of Homo sapiens with 10 samples.

Results

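The binding sites of ERG and of EWS in VCaP prostate cancer cells were compared, as 2 lists of ChIP-seq peaks from a series of 7 lists. The members were the 7712 ERG peaks and the 9500 EWS peaks of VCaP, 17212 of the 30301 peaks in all lists, taken by cell line and antibody. VCaP cells were grown in DMEM with fetal bovine serum and no treatment is given. ChIP used anti-ERG clone 9FY and anti-EWS clone G5. Each VCaP factor had 1 list, so no value below has a replicate check. The lists hold positions only (hg19), with no height, so read depth is unknown, and a peak list cannot be checked for cell markers. The other lists came from RWPE1, a line of normal prostate that stably expressed wild-type ERG (2 ERG lists, replicates 1 and 2, and 1 EWS list) or the point mutant P436A (1 ERG and 1 EWS list), in keratinocyte medium with puromycin and hygromycin. They serve here only for comparison. The study's title ties binding to EWS to the ETS factors rearranged in prostate cancer, and the question put to these lists was whether EWS was found at the sites of ERG.

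ERG belongs to the ETS family, whose members bind DNA through a domain that recognizes a GGAA core. VCaP was established from a vertebral metastasis and is known for a fusion of TMPRSS2 to ERG, through which an androgen-driven promoter makes the cells express ERG, and for an amplified androgen receptor gene. EWS, encoded by EWSR1, is an RNA-binding protein of the FET family and is best known as the partner of ETS factors in the fusions of Ewing sarcoma. It does not recognize a DNA sequence as an ETS factor does, and is thought to reach chromatin through other proteins and nascent RNA. In a ChIP-seq experiment a peak is a stretch of genome where fragments recovered with an antibody pile up. Where proteins are bound at the same site, their peaks are generally centred on nearly the same bases.

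An EWS peak lay on about 1 in 9 ERG peaks, nearly all of them in megabases with at least 10 peaks of the 2 lists together. In the lists as deposited, 873 of 7712 ERG peaks shared at least 1 bp with an EWS peak (11.3%, exact 95% interval 10.6% to 12%). From the other side, 975 of 9500 EWS peaks shared at least 1 bp with an ERG peak (10.3%, 9.66% to 10.9%). All intervals cover counting error only. With every peak set to 500 bp around its centre, so that the long ERG peaks (up to 184765 bp, against at most 501 bp for EWS) no longer weighed, 544 ERG peaks had EWS. These were 7.05% of ERG peaks (6.49% to 7.65%), and 5.73% of EWS peaks had ERG (5.27% to 6.21%). Of the 873 ERG peaks, 542 were still shared at that width (62.1%). A reciprocal overlap of 0.5 left 2.46% of ERG peaks. Most contacts were single. On 791 ERG peaks there was 1 EWS peak, on 70 there were 2, on 8 there were 3, and the highest number was 6, while each of the 975 EWS peaks touched 1 ERG peak. Of the 82 ERG peaks with several EWS peaks, 70 were over 2000 bp wide. In bases, 360433 bp of the 10085350 bp under ERG peaks also lay under an EWS peak (3.57%).

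The overlap was unevenly spread over the chromosomes. On chromosome 13, 177 of 458 ERG peaks had EWS (38.6%, 34.2% to 43.3%), on chromosome 11, 312 of 1050 (29.7%, 27.0% to 32.6%), on chromosome 6, 126 of 597 (21.1%, 17.9% to 24.6%), and on chromosome 8, 71 of 473 (15%, 11.9% to 18.6%). Chromosomes 6, 11 and 13 together carried 27.3% of the ERG peaks but 70.4% of the shared ones, and without them the share fell to 258 of 5607 (4.60%, 4.07% to 5.18%). Middle values were found on chromosome 17 (9.12%), chromosome 5 (8.09%), chromosome 21 (7.48%), chromosome 4 (5.84%) and chromosome 1 (5.0%). On chromosomes 2, 10, 14 and 16, which held 133, 105, 42 and 41 ERG peaks, no ERG peak had EWS. These are also chromosomes with few EWS peaks (22, 43, 29 and 2), and the counts allow shares of up to 2.74%, 3.45%, 8.41% and 8.60%.

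Chromosomes with many peaks of both factors could have few contacts. Chromosomes 3, 7, 9, 12, 15, 19 and 20, grouped after their values were seen, held 2302 ERG and 2164 EWS peaks, and 20 ERG peaks had EWS (0.869%, 0.531% to 1.34%). On chromosome 12, 364 ERG and 534 EWS peaks had 2 contacts, and on chromosome 15, 303 and 473 peaks had 6. Chromosome 13, with 458 ERG and 442 EWS peaks, had 177. These counts do not allow for packing: 390 ERG and 389 EWS peaks of chromosome 13 lay from 108 to 113 Mb. On chromosome 12 the longest dense stretch, from 0 to 8 Mb, held 55 and 102. The contrast thus does not show that EWS chose or avoided ERG sites. Over chromosomes 1 to 22 and X the numbers of ERG and EWS peaks went together (Pearson r = 0.767, Spearman rho = 0.826, 23 chromosomes, a description with no test).

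**Figure D1:**
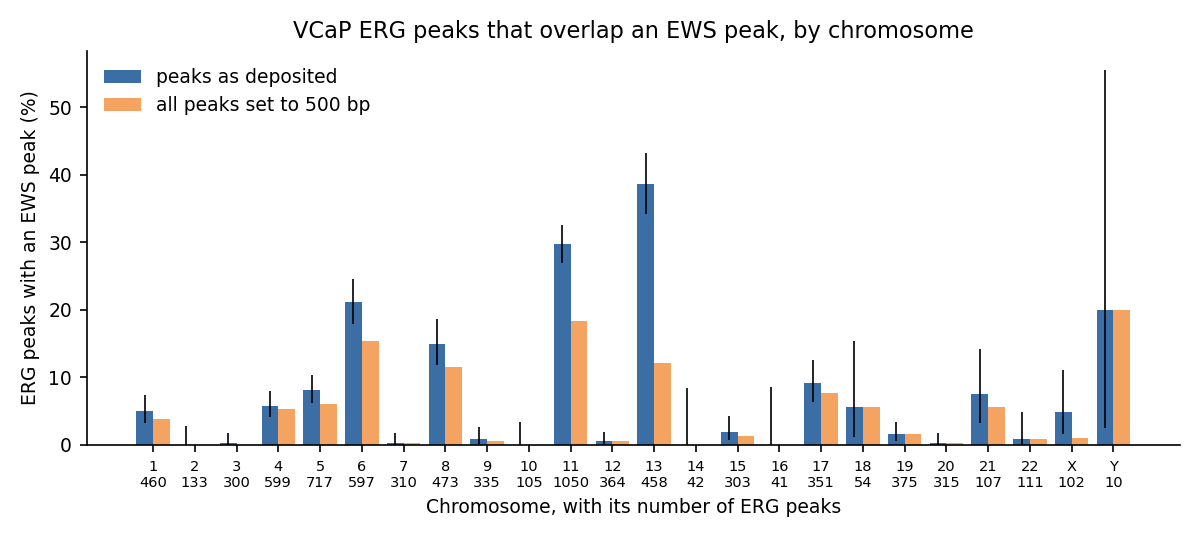
Share of VCaP ERG peaks that overlap an EWS peak (y axis, percent) on each chromosome (x axis, with its number of ERG peaks), as deposited (blue, with exact 95% intervals) and with all peaks set to 500 bp (orange). Chromosome 13 is highest among the chromosomes with over 100 ERG peaks as deposited (38.6%) but falls to 12.2% at 500 bp, below chromosomes 11 (18.3%) and 6 (15.4%).

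The rank of chromosome 13 went with peak width. This chromosome held 203 of the 477 ERG peaks over 2000 bp, and 124 of its 177 shared ERG peaks were of this kind. With all peaks at 500 bp its count fell from 177 to 56 (12.2%), a larger drop than on chromosome 11 (312 to 192, 18.3%) or chromosome 6 (126 to 92, 15.4%). Chromosome 4, with 3 such wide peaks, changed from 35 to 32.

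Megabases with at least 10 peaks of the 2 lists together are termed crowded. There were 383 of them among 1976 megabases with a peak, and they held 4782 ERG peaks (62%), 7410 EWS peaks (78.0%) and 857 of the 873 shared ERG peaks (98.2%). Inside them 17.9% of ERG peaks had EWS (16.8% to 19%), or 11.1% at 500 bp. Outside them 16 of 2930 had EWS (0.546%, 0.312% to 0.885%), and 14 at 500 bp. No test is given for this contrast, because the megabases were chosen by the same peaks. The median gap between neighbouring peaks was 18.6 kb for ERG and 11.4 kb for EWS inside crowded megabases, and 321 kb and 327 kb outside.

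Many crowded megabases had no overlap. A shared ERG peak occurred in 89 of the 383 crowded megabases, and 217 held at least 5 peaks of each list. On chromosome 15, 22 of 29 crowded megabases had at least 5 of each, and on chromosome 19, 20 of 28. Each of these chromosomes had 6 shared ERG peaks. Short peaks that are few in a megabase can all miss each other, so a lack of contacts there does not show avoidance. The 10 megabases with the most shared ERG peaks held 548 of them (62.8%), on 16.1% of the ERG peaks. Chromosome 11 supplied 5 of the 10 as an unbroken stretch. Its megabase from 63 to 64 Mb held 222 ERG and 219 EWS peaks with 108 shared ERG peaks, and 64 to 65 Mb held 155 and 254 with 75. From 65 to 66 Mb there were 60 shared ERG peaks, from 66 to 67 Mb 33, and from 67 to 68 Mb 30. Chromosome 13 supplied 3, with 53 from 109 to 110 Mb, 52 from 110 to 111 Mb and 45 from 111 to 112 Mb. The remaining ones were chromosome 6, 20 to 21 Mb, with 66, and chromosome 8, 128 to 129 Mb, with 26.

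In these megabases the part covered by EWS peaks was compared between the bases under ERG peaks and the other bases of the same megabase. The megabases had been picked by their overlap, so the values are a description with no test. On chromosome 6, 20 to 21 Mb, EWS peaks covered 8.33% of the bases under ERG peaks and 8.40% of the other bases. From 109 to 110 Mb of chromosome 13 these were 7.36% and 7.96%. On chromosome 11 the values were 12.4% and 9.43% from 63 to 64 Mb, 13.7% and 12% from 64 to 65 Mb, 15.1% and 9.66% from 65 to 66 Mb, 13.3% and 9.13% from 66 to 67 Mb, and 10.5% and 9.23% from 67 to 68 Mb. Chromosome 8 stood apart, with 15.5% under ERG peaks against 3.38% elsewhere from 128 to 129 Mb, a ratio of 4.59. That value rests on 26 shared ERG peaks and has no interval. A ratio of this kind also rises where both lists gather in the same part of a megabase. The ratio lay between 0.924 and 1.57 in the other megabases where it could be taken. It could not be taken from 111 to 112 Mb of chromosome 13, where ERG peaks covered 90.7% of the megabase and all 25766 bp of EWS lay under them. From 110 to 111 Mb ERG peaks covered 88.0%.

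The number of EWS peaks in the megabase of an ERG peak ordered the overlap. None of 1267 ERG peaks in megabases without an EWS centre had EWS. The grouping all but fixes this value, since only a peak across the edge of the megabase could touch one. The share was 0.784% with 1 to 4 EWS peaks in the megabase (16 of 2040), 1.94% with 5 to 9, 4.34% with 10 to 19, 14.6% with 20 to 49, 26.4% with 50 to 99 and 40.8% with 100 or more (496 of 1217, in 11 megabases). With all peaks at 500 bp the share was 0.637% with 1 to 4 EWS peaks and 26.4% with 100 or more. More EWS peaks leave fewer places without one, so this rise does not show where within a megabase EWS lay. The parts of EWS density and of ERG peak width in it were not tested.

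**Figure D2:**
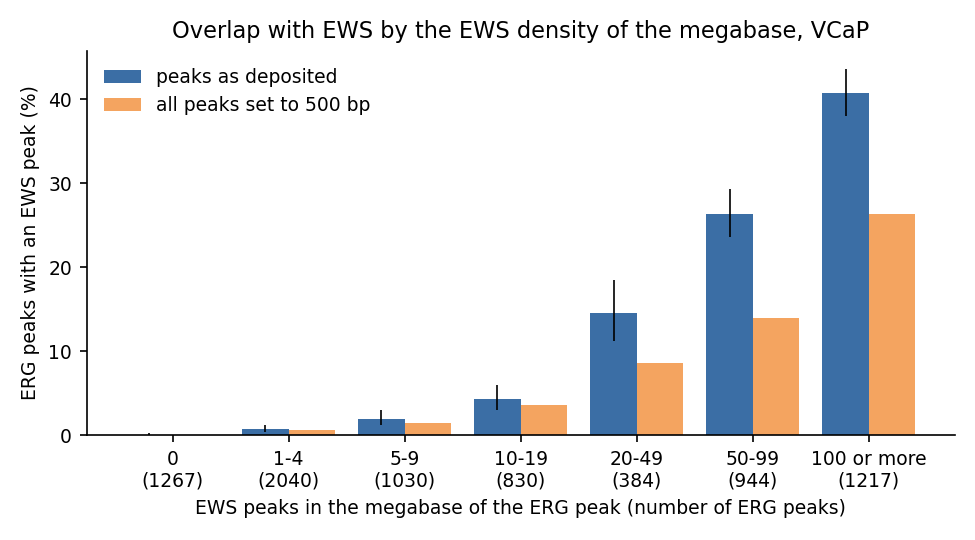
Share of VCaP ERG peaks that overlap an EWS peak (y axis, percent, with exact 95% intervals on the blue bars), by the number of EWS peaks in the megabase of the ERG peak (x axis, with the number of ERG peaks), as deposited (blue) and at 500 bp (orange). The 0 in megabases without EWS is all but fixed by the grouping. From 0.784% as deposited with 1 to 4 EWS peaks, the share goes to 40.8% where the megabase held 100 or more. At 500 bp it reaches 26.4% there.

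Whether EWS lay on the ERG sites or only in their neighbourhood was read from the density of EWS centres around ERG centres. In VCaP this density rose little towards the centre and changed little beyond it. There were 77.8 EWS centres per Mb within 100 bp of an ERG centre, 73.9 at 100 to 250 bp, 66.1 at 250 to 500 bp and 55.8 at 500 to 1000 bp. Farther out it was 54.1 at 10 to 20 kb, 52.1 at 20 to 50 kb and 46.3 at 100 to 200 kb. The 546 pairs of centres within 500 bp gave 70.8 per Mb and the 12534 pairs at 5 to 20 kb gave 54.2 per Mb, a centre-to-flank ratio of 1.31 (1.2 to 1.42). At the flank density the same windows would have held 418 pairs, so 128 of the 546 were in excess, or 1.66 per 100 ERG peaks.

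The RWPE1 lists, measured the same way, gave a sharp peak at the centre. Around replicate 1 of wild-type ERG the density went from 205 EWS centres per Mb within 100 bp to 15.1 at 10 to 20 kb, around replicate 2 from 94.7 to 5.43, and around ERG P436A from 63.0 to 2.49. Their centre-to-flank ratios were 5.36 (4.50 to 6.36), 6.06 (4.52 to 8.0) and 7.92 (5.39 to 11.4). These were 4.10, 4.64 and 6.06 times the VCaP ratio (Fisher's exact test, two-sided, adjusted over 3 comparisons, p = 1.55e-38, 3.30e-19 and 5.43e-16). A peak can enter several pairs, so these p-values are too small, and they compare lists, not conditions. The tests were chosen after the ratios were seen. A high flank lowers a ratio. Counted as an excess over the flank, VCaP had 1.66 pairs per 100 ERG peaks, against 6.76 for replicate 1, 2.61 for replicate 2 and 1.90 for ERG P436A, so that VCaP and the mutant lay close on that scale, where the difference was not tested.

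**Figure D3:**
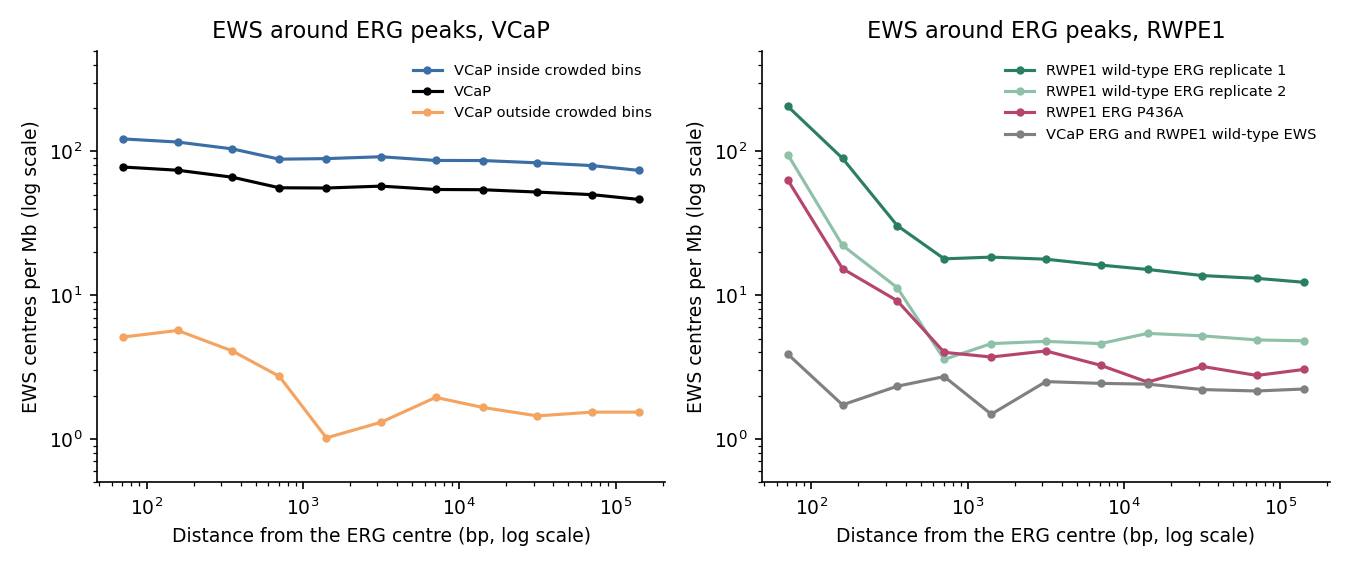
Density of EWS centres (y axis, per Mb, log scale) against the distance from an ERG centre (x axis, bp, log scale) in VCaP (left: all ERG peaks, and those inside and outside crowded megabases) and in RWPE1 (right, with VCaP ERG against wild-type RWPE1 EWS in grey). VCaP runs from 77.8 within 100 bp to 46.3 at 100 to 200 kb, while replicate 1 falls from 205 to 12.3.

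Each VCaP list did line up sharply with the list of the same factor in the other cell line. VCaP ERG centres against those of RWPE1 gave ratios of 18.0 (14.6 to 22.2) for wild-type replicate 1, 5.85 (4.53 to 7.47) for replicate 2 and 11.1 (8.84 to 14) for P436A. VCaP EWS against the EWS lists of RWPE1 gave 3.13 (2.38 to 4.06) with wild-type ERG and 6.0 (4.32 to 8.18) with P436A. Against the other factor of the other line, VCaP ERG gave 1.02 (0.609 to 1.61) with EWS from the wild-type line and 1.11 (0.471 to 2.22) with EWS from the P436A line. The VCaP ratio of ERG and EWS thus lay within the intervals of the last 2 and below those of all 5 pairs of the same factor. As an excess over the flank the order differed. The ERG pairs had 1.80, 0.839 and 1.26 pairs in excess per 100 VCaP ERG peaks. The EWS pairs had 0.459 and 0.430 per 100 VCaP EWS peaks. ERG and EWS within VCaP had 1.66 per 100 VCaP ERG peaks. On that scale VCaP ERG had 0.00475 with EWS from the wild-type line and 0.00994 with EWS from the P436A line. These last 2 values rest on only 19 and 8 pairs within 500 bp. The pairs of lists across cell lines were added after the first ratios were known, and differences among all these pairs were not tested.

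Within 500 bp, VCaP EWS centres were spread almost evenly about the ERG centre. Of the 546 pairs, 120 had centres within 100 bp (22%, 18.6% to 25.7%), where an even spread would put 20%, and the median distance was 234 bp. In RWPE1 this share was 49.4% for replicate 1 (78 of 158, 41.3% to 57.4%), 60.7% for replicate 2 (37 of 61, 47.3% to 72.9%) and 57.9% for ERG P436A (22 of 38, 40.8% to 73.7%), with medians of 102, 78.0 and 68.5 bp. The odds were 3.46, 5.47 and 4.88 times those in VCaP (Fisher's exact test, two-sided, adjusted over 3 comparisons, p = 3.12e-10, 1.84e-09 and 4.60e-06, chosen after the values were seen). Pairs that the flank density alone would give are spread about evenly, and they were 418 of the 546 in VCaP. In RWPE1 they were 29.5 of 158 for replicate 1, 10.1 of 61 for replicate 2 and 4.80 of 38 for ERG P436A. These shares are thus tied to the centre-to-flank ratios and do not show how the pairs in excess were centred. A wide peak has a less certain centre, and VCaP ERG peaks are wider. With ERG peaks no wider than the widest EWS peak of VCaP (501 bp) in all lists, the VCaP share was 22.9% (25 of 109) against 43.9% (18 of 41), 9 of 18 pairs and 57.9% (22 of 38), and the adjusted exact p-values were 0.0227, 0.0228 and 5.89e-04.

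**Figure D4:**
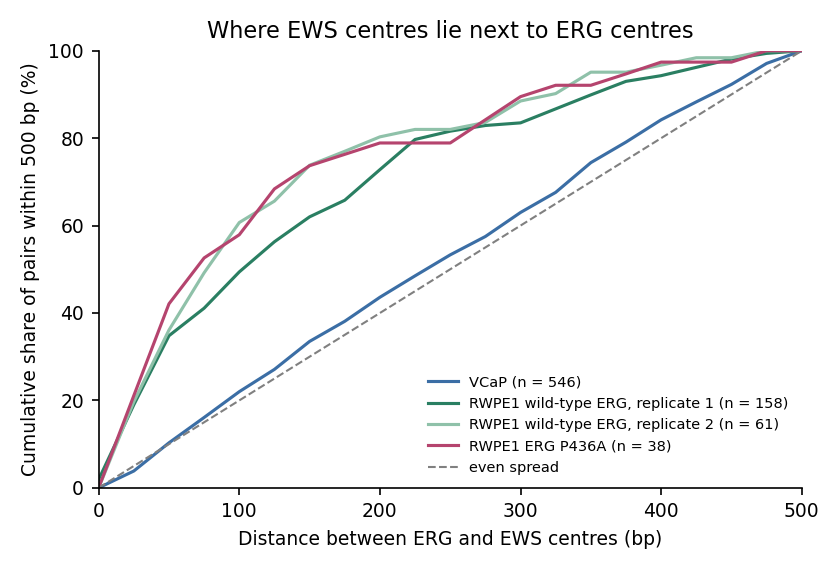
Cumulative share of ERG and EWS centre pairs (y axis, percent of the pairs within 500 bp) by the distance between the centres (x axis, bp), for VCaP and the 3 RWPE1 pairs of lists, with an even spread dashed. The VCaP line stays close to the dashed one, at 22% by 100 bp, while the RWPE1 lines reach 49.4% to 60.7% there.

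A coarser count, with each ERG peak entered once, separated the lists less, but it also depends on EWS density. The nearest of many EWS centres lies closer than the nearest of few. At 5 to 20 kb there were 54.2 EWS centres per Mb in VCaP. In RWPE1 there were 15.5 for replicate 1, 5.15 for replicate 2 and 2.75 for ERG P436A. The odds below thus mix density with position, and their parts were not tested. In VCaP 3321 ERG peaks (43.1%) had an EWS centre within 20 kb, and in 546 of them the nearest lay within 500 bp (16.4%, 15.2% to 17.7%). In RWPE1 the latter share was 26.5% for replicate 1 (158 of 597), 18.7% for replicate 2 (61 of 327) and 18.2% for ERG P436A (38 of 209). The odds were 1.83 times those in VCaP for replicate 1 (Fisher's exact test, two-sided, adjusted p = 4.96e-08), and 1.17 and 1.13 times for the other lists (adjusted p = 0.468 and 0.502). With 1000 bp in place of 500 bp, the odds were 1.18 times for replicate 1 (adjusted exact p = 0.0863), and for the others they turned below those of VCaP, to 0.660 and 0.690 times (adjusted exact p = 0.00863 and 0.0479). Among ERG peaks with EWS within 50 kb the odds were 1.51 times for replicate 1 (adjusted exact p = 1.79e-04) and 0.749 and 0.649 times for the others (adjusted exact p = 0.0425 and 0.0176).

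Among the 8 chromosomes with the most shared ERG peaks, chromosome 11, which had most, had the lowest centre-to-flank ratio. It was 1.14 (0.981 to 1.31), with 193 pairs within 500 bp, and it was 1.2 on chromosome 6 (0.963 to 1.48). Chromosome 13 had 1.35 (1.02 to 1.77), chromosome 8 had 1.37 (1.03 to 1.79), chromosome 5 had 1.33 (0.959 to 1.80) and chromosome 17 had 1.59 (1.04 to 2.34). Chromosome 1 had 2.05 (1.2 to 3.31) and chromosome 4 had 2.75 (1.85 to 3.96), with 32 pairs within 500 bp where the flank density gives 11.6. Of these 8 intervals, only that of chromosome 4 lay wholly above that of the whole list. Without chromosomes 6, 11 and 13 the ratio was 1.57 (1.36 to 1.81). Ordered by the EWS number of the megabase, it went from 2.44 (1.27 to 4.29) with 1 to 4 EWS peaks to 1.19 (1.07 to 1.34) with 100 or more.

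ERG peaks outside crowded megabases had 14 EWS centres within 500 bp and 154 at 5 to 20 kb, a ratio of 2.73 (1.46 to 4.72). The RWPE1 lists outside their own crowded megabases gave 14.9 (10.6 to 20.7) for replicate 1, 7.58 (4.58 to 12.1) for replicate 2 and 10.3 (6.05 to 17) for ERG P436A. These subsets were chosen by the same peaks, so no test is given. The VCaP value moved with the setting, to 7.50 (2.77 to 17.6) with crowding set at 5 peaks and to 1.96 (0.771 to 4.19) with the EWS list cut to the length of the ERG list.

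The 16 shared ERG peaks of these sparse megabases lay in 16 different megabases, 4 of them on chromosome 5, 3 on chromosome 1, 2 each on chromosomes 4, X and Y, and 1 each on chromosomes 3, 7 and 20. The median distance between centres was 272 bp, and 3 pairs were within 100 bp. The closest was at chrX:15316032-15316944, with EWS at chrX:15316325-15316756 and 53 bp between centres. The next were at chr5:159349478-159351454, with EWS at chr5:159350135-159350634 and 81 bp, and at chr5:177002580-177003797, with EWS at chr5:177002843-177003341 and 97 bp. The pair of chromosome 5 with 81 bp between centres stood high in both lists, at position 48 for ERG and 6 for EWS, counted from the top. The same held for chrX:67056706-67078203, an ERG peak of 21498 bp at position 21 with an EWS peak of position 3, whose centres were 8997 bp apart. Only the peak at chr4:52944-53461 was also in an RWPE1 ERG list, and none was in an RWPE1 EWS list.

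Among contacts where both peaks were at most 1000 bp wide and had 1 partner, 418 in all, the median distance of centres was 264 bp and the median overlap 314 bp. The 10 pairs with the closest centres, 4 to 10 bp apart, all lay in crowded megabases. They included chr18:44543138-44543484, a peak of 347 bp wholly inside its EWS peak at chr18:44543126-44543487, chr6:34024621-34025336 with EWS at chr6:34024734-34025232, and chr4:74804794-74805284 with EWS at chr4:74804783-74805280. Chromosome 11 held 4, among them chr11:64045876-64046713 and chr11:65766950-65767440. None of the 10 overlapped an ERG or EWS peak of RWPE1.

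The ERG peaks with the most EWS peaks on them were long. On chromosome 13, chr13:110587439-110643626 spanned 56188 bp and carried 6 EWS peaks that made up 2966 bp of it. On chromosome 11, chr11:63681056-63693211 spanned 12156 bp with 5. The first peak of either list formed a pair too: the ERG peak at chrX:66850199-67034963 spanned 184765 bp, and the first EWS peak lay in it at chrX:66989603-66990098, with 47270 bp between the centres. The first 5 listed ERG peaks with EWS stood at positions 1, 4, 6, 7 and 9. The first 5 without EWS stood at positions 2, 3, 5, 8 and 15.

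Up to 1000 bp, ERG peak width made little difference to the overlap, and beyond it the share climbed with length. It was 6.68% for ERG peaks up to 500 bp (94 of 1407), 7.36% for those over 500 and up to 750 bp and 6.83% for those over 750 and up to 1000 bp, then 14.2% up to 2000 bp, 49.3% up to 5000 bp (132 of 268) and 66.5% above (139 of 209). At 500 bp these classes had 6.82%, 6.85%, 5.33%, 7.70%, 17.9% (13.5% to 23%) and 8.13% (4.81% to 12.7%). The last 2 classes lay in crowded megabases for 96.6% and 99% of their peaks, against 53.1% to 67.3% of the others. EWS covered 3.13% of the bases under ERG peaks up to 1000 bp, 4.25% under those over 1000 and up to 2000 bp, and 3.71% under wider ones.

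Along the EWS list the share went down at either width, and along the ERG list only at the deposited widths. Of the first 20% of the EWS list, 29.1% had ERG (553 of 1900, 27.1% to 31.2%), and the share was 10.1%, 5.42%, 3.89% and 2.84% in the following blocks of 20%. At 500 bp it went from 12.3% to 2.00%. The part of these peaks that lay in crowded megabases went down as well, from 90.5% to 66.7%. Among ERG peaks the share went from 18% in the first 20% (278 of 1543) to 8.04% in the last, but at 500 bp from 5.70% to 7.52%. The median ERG width went from 1190 bp in the first block to 501 bp in the last. The order is not documented as a ranking. Over the 975 contacts the positions in both lists went together (Spearman rho = 0.524), a description over peaks that share megabases.

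**Figure D5:**
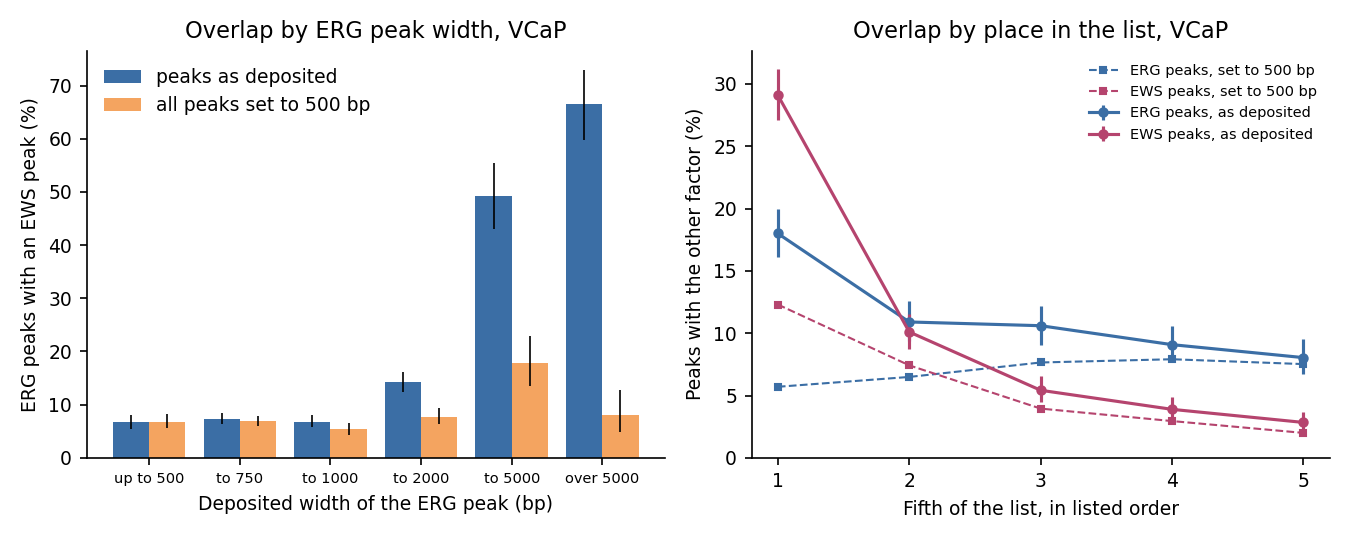
Left, share of VCaP ERG peaks with an EWS peak (y axis, percent) by deposited ERG width (x axis, bp), as deposited (blue) and at 500 bp (orange). Right, share of ERG (blue) and EWS (red) peaks with the other factor (y axis, percent) by block of 20% of the list in listed order (x axis), as deposited (solid) and at 500 bp (dashed); bars are exact 95% intervals. EWS falls from 29.1% to 2.84% along its list, and ERG at 500 bp stays between 5.70% and 7.91%.

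VCaP ERG peaks with EWS were rarely sites of ERG in RWPE1. At 500 bp, 2 of 544 ERG peaks with EWS were also in an RWPE1 ERG list (0.368%, 0.0446% to 1.32%), against 273 of 7168 without EWS (3.81%, 3.38% to 4.28%), and the intervals did not overlap. For the EWS lists of RWPE1 the counts were 3 of 544 (0.551%, 0.114% to 1.60%) and 24 of 7168 (0.335%, 0.215% to 0.498%). With the peaks as deposited, 15 of 873 ERG peaks with EWS (1.72%) and 289 of 6839 without (4.23%) were in an RWPE1 ERG list. For the EWS lists these were 14 of 873 (1.60%, 0.879% to 2.68%) and 28 of 6839 (0.409%, 0.272% to 0.591%), with intervals apart at the deposited widths and overlapping at 500 bp. The part of crowding in these contrasts was not tested. Inside crowded megabases the ERG lists gave, at the deposited widths, 14 of 857 with EWS (1.63%, 0.896% to 2.73%). Without EWS they gave 127 of 3925 (3.24%, 2.70% to 3.84%). These intervals overlapped only at their edges, and an overlap does not show that the shares were alike. Outside crowded megabases 1 of 16 with EWS (6.25%) and 162 of 2914 without (5.56%) were in an RWPE1 ERG list. Around the 304 VCaP ERG peaks that RWPE1 also had for ERG, VCaP EWS had a centre-to-flank ratio of 1.28 (0.461 to 2.85), with 6 centres within 500 bp, against 1.31 (1.2 to 1.42) around the other 7408.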

How the data were processed

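Peak lists of 2 VCaP ChIP samples were compared, with 5 RWPE1 lists beside them; 3 input samples were not used here. Each list deposited by the authors holds chromosome, start and end in base pairs, with no height or p-value. Per the submitters' processing notes, reads were aligned with Bowtie2 (version given as 0.12.8) to hg19. For the peak caller, its threshold and its control, the sources used here give nothing, and read depth is unknown. Starts were read as 0-based; positions printed are 1-based. The members and lists were chosen with earlier results of these data known.

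Peaks sharing at least 1 bp counted as overlapping. Shares carry exact Clopper-Pearson 95% intervals. The centre-to-flank ratio sets EWS centres per kb within 500 bp of ERG centres against those at 5 to 20 kb, with an exact conditional interval. A peak belongs to the megabase of its centre. Shares of list pairs were compared by Fisher's exact test, two-sided, with Benjamini-Hochberg adjustment. Peaks are not replicates. The code was tested on simulated data. The gene table at hand is of GRCh38, so genes and sequences were not assigned here. Named regions follow a fixed rule: per leading chromosome the ERG peak with most EWS peaks, all shared peaks outside crowded megabases, the first 5 listed with and without EWS, the 10 closest narrow pairs and the 10 megabases with most shared peaks. Python 3.11.15, NumPy 2.4.6, SciPy 1.17.1 and Matplotlib 3.10.9 were used.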

Additional observations from a re-analysis of the deposited data

Results flagged for a closer look

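These values were set apart because a test between peak lists of VCaP and RWPE1 passed its threshold. Peaks are not replicates, so the cell lines themselves were not tested. Set against VCaP, the centre-to-flank ratio of EWS around ERG was 4.10 times as high for wild-type ERG replicate 1, 4.64 times for replicate 2 and 6.06 times for ERG P436A. The odds that the nearest EWS centre lay within 500 bp were 1.83 times as high for replicate 1. Each value compares single lists by Fisher's exact test, and list length, crowding and peak width differed between the cell lines.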

How the results depend on the processing

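Leaving out replicates was not possible, and read depth is unknown. No paired analysis was possible because each VCaP factor had 1 list. Of 139 recomputed values, 96 stayed within the interval or on the same side of the threshold. EWS lay on 11.3% of ERG peaks. This value was 7.05% with peaks set to 500 bp, 2.46% with a reciprocal overlap of 0.5, 8.32% without peaks over 2000 bp, 8.42% without chromosome 11, 9.59% without chromosome 13, 10.5% without chromosome 6 and 4.60% without all 3. The share of EWS peaks with ERG (10.3%) was 5.73%, 2.00%, 6.46%, 7.78% and 8.34% under the first 5 of these, 3.94% without the 3 chromosomes, and 12% with EWS cut to the length of ERG. Outside crowded megabases the ERG share (0.546%) was 0.171% with the reciprocal overlap, 0.307% with the cut list and 0.923% with crowding set at 20 peaks. Inside them (17.9%) it was 11.1%, 3.87% and 13.6% under the first 3 settings, 14%, 15.6% and 16.7% without chromosome 11, 13 or 6, and 14% or 24.7% with crowding set at 5 or 20 peaks. Chromosome 11 held 28.9% of the shared ERG peaks with the reciprocal overlap, against 35.7%.

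The centre-to-flank ratio (1.31) was 1.17 with 1000 bp as the centre and 1.57 without the 3 chromosomes. Outside crowded megabases (2.73) it was 7.50 with crowding set at 5 peaks, and the cut list gave 1.96 with an interval reaching 0.771. The share of near ERG peaks with EWS within 500 bp (16.4%) was 14% without chromosome 11, 8.76% within 250 bp, 28.5% within 1000 bp and 13.1% of those near within 50 kb. The odds ratio of replicate 1 to VCaP was 1.18 with 1000 bp. For replicate 2 it was 1.41 without chromosome 11, 1.88 with 250 bp, 0.694 with the cut list, 0.660 with 1000 bp and 0.749 with 50 kb. For ERG P436A it was 1.75 with 250 bp, 0.690 with 1000 bp and 0.649 with 50 kb. These odds thus depend on the distances chosen, and also on the EWS density of each list. The ratios of the centre-to-flank ratios kept their direction and side in all 30 recomputed values. The share of centres within 100 bp (22%) was 25.9% without the 3 chromosomes. Alternatives without the 3 chromosomes, and those on the ratios of ratios and centre distances, were chosen after seeing the data. The cause of these moves was not tested.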
